A study of Mus musculus with 12 samples.

Results

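The genes described are those of heterotrimeric G protein and cyclic nucleotide signalling that a mouse Illumina bead array measured in postnatal neural stem cells and in astrocyte cultures made from them. Members were taken by gene symbol: Rgs genes, G protein alpha, beta and gamma subunits (Gna, Gnb, Gng), receptors with Gpr and Adgr names, adenylyl cyclases (Adcy), cyclic nucleotide phosphodiesterases (Pde), and protein kinase A subunits (Prkar, Prkaca, Prkacb). The array carried 174 such symbols on 311 probes. A symbol became a member when a probe had a detection p-value under 0.05 on at least 4 of the 11 arrays used, which left 104 members among 10711 genes tested. By role there were 16 Rgs genes of 19 symbols, 11 G alpha of 16, 5 G beta of 6, 6 G gamma of 12, 29 Gpr receptors of 63, 10 adhesion receptors of 19, 5 adenylyl cyclases of 9, 17 phosphodiesterases of 24 and 5 protein kinase A genes of 6. Of the 70 other symbols, 56 had no probe detected on any array and 14 were detected on 1 to 3 arrays. Just outside the threshold lay Gpr152, Gpr183 and Gpr20, each detected on 3 arrays, with mean log2 levels over the arrays of 4.81, 4.76 and 4.59. Just inside lay Pde1c, Rgs1 and Rgs5, each detected on 4 arrays, with means of 4.82, 4.82 and 5.06. Some names taken in by the rule stand at the edge of their family or outside it. For example, Rgs7bp and Rgs9bp encode anchors of Rgs proteins, while Gnb1l and Pde4dip encode proteins outside the G beta and phosphodiesterase families. Gpr137b-ps is a pseudogene copy. The counts by role go by name and hold all such symbols, so they are not family sizes.

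A G protein-coupled receptor that binds its ligand loads GTP onto a G alpha subunit, which then parts from the beta and gamma subunits. Alpha subunits of the stimulatory class switch adenylyl cyclases on, those of the inhibitory class restrain them, and Rgs proteins end the signal by speeding GTP hydrolysis. Adenylyl cyclases make cAMP, which frees the catalytic subunits of protein kinase A from their regulatory subunits, and phosphodiesterases degrade cAMP and cGMP. In astrocytes this pathway is known for responses to purines, peptides and noradrenaline.

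Neural stem cells were taken from subventricular tissue of CD1 pups on postnatal day 1 and expanded as neurospheres in EGF. In the BMP4 group (4 arrays), cells had received recombinant human BMP4 at 20 ng/ml for 7 days. In the LIF_NOG group (4 arrays) they had received LIF at 20 ng/ml and noggin, which binds and blocks BMPs, at 250 ng/ml for the same time. Both of these media held EGF at 1 ng/ml. The Neurosphere group (4 arrays deposited, 3 used) was sorted straight from neurospheres growing with 20 ng/ml EGF. Cells of both astrocyte groups carried a retrovirus named GFAP-GFP, of which the labels say no more, and had been sorted for GFP before differentiation, while Neurosphere cells carried a control GFP retrovirus. No mutant allele is named for any group. A comparison with Neurosphere therefore holds differences in cytokine, EGF, retrovirus, time and culture form together, which cannot be told apart, whereas BMP4 against LIF_NOG differs in the added proteins alone as far as the labels say. The labels do not say that arrays of a group came from separate animals or cultures, so the p-values speak only of the spread among these arrays, and that spread may be technical.

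Each array detected 38.7% to 42.0% of its probes. Neurosphere 1 stands in another row order in the deposited raw table (median rank correlation 0.0104 with the other arrays) and was left out. Of 10 astrocyte marker genes, all 10 were measured, and 7 were higher and 0 lower in BMP4 than in LIF_NOG cells, with summed linear levels of 105421 to 146717 on BMP4 arrays, 36890 to 60912 on LIF_NOG arrays and 21632 to 23070 on Neurosphere arrays. Oligodendrocyte genes were present too: Mbp, Mag and Cldn11, the 3 measured of 6 myelin genes, summed to 83.9 to 174 on BMP4 arrays, 2762 to 7106 on LIF_NOG arrays and 264 to 387 on Neurosphere arrays. Of 5 measured neural stem and progenitor genes, 4 (Nes, Egfr, Prom1 and Vim) were lower and 0 higher in BMP4 than in LIF_NOG cells. Of 6 neuronal genes, 2 (Dcx and Rbfox3) were lower and 1 (Snap25) was higher. Dcx averaged 5.31 in BMP4 cells and 8.31 in LIF_NOG cells. Of 2 measured ependymal genes, 1 (Tekt1) was lower and 0 higher. The part of such cells in the differences of members was not tested. None of 5 microglial genes was measured. In bulk RNA of this kind, fewer cells of a type and less RNA per cell cannot be told apart. The arrays LIF_NOG 2 and BMP4 4 stood at the edge of their group most often among the arrays of both astrocyte groups, each highest or lowest for 65 of the 104 members.

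The Rgs genes held the largest change among the members, and the promoters of 4 of them are shown. Candidates were the Rgs genes called between BMP4 and LIF_NOG cells that had exactly 1 promoter, anchors left out. Among these, Rgs9 and Rgs2 had the largest positive differences of BMP4 from LIF_NOG. Rgs16 and Rgs4 had the largest negative ones. Sequences are RefSeq's, build GRCm38.p6, from 250 bases before to 50 after the start of the gene, 5′ to 3′ on the strand of the gene. They lie at chr11:109298132-109298431 (minus strand) for Rgs9, chr1:144004100-144004399 (minus strand) for Rgs2, chr1:153740103-153740402 (plus strand) for Rgs16 and chr1:169747593-169747892 (minus strand) for Rgs4. Capitals mark matches on either strand to TGACG, a core of the cAMP response element, or to GGCGCC, an element of BMP-SMAD target genes; the STAT pattern TTCNNNGAA was also searched.
Rgs9: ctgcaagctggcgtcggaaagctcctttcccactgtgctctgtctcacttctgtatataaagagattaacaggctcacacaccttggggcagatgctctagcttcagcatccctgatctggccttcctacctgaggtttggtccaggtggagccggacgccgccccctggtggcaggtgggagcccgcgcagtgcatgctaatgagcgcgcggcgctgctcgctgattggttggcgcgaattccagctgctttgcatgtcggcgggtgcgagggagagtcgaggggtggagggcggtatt
Rgs2: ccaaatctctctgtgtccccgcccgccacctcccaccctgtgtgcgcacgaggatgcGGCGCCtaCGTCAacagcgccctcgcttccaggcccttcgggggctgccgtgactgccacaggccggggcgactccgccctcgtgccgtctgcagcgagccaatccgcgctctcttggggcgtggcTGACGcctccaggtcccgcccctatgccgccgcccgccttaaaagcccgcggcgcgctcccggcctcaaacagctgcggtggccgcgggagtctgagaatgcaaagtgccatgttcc
Rgs16: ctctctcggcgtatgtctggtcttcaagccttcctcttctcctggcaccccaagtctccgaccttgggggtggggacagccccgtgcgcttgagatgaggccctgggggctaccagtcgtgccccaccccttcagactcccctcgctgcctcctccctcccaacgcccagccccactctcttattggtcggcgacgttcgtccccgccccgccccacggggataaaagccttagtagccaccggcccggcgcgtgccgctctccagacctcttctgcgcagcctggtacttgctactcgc
Rgs4: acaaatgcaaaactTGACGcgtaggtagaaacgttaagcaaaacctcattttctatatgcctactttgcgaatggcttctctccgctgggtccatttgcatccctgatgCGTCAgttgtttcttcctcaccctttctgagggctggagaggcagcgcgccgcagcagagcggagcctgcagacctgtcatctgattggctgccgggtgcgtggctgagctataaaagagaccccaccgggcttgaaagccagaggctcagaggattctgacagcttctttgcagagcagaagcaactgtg
Rgs2 and Rgs4 each held 2 matches to TGACG, Rgs2 held 1 to GGCGCC, and Rgs9 and Rgs16 held none of the 3 patterns in this window. Among all 32851 RefSeq mouse promoters of this length, 20.8% held TGACG, 11.9% held GGCGCC and 8.30% held TTCNNNGAA. These matches are letters in a window and not measured sites.

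BMP4 cells differed from LIF_NOG cells in 52 of the 104 members by limma at an adjusted p under 0.05, 32 of them higher and 20 lower. Over all genes tested 42.7% were called, with 20.3% higher and 22.4% lower, and no test was made of the members' share against this background. The median log2 fold change was 0.14 over members, against -0.00 over all genes. The median size of change, without its sign, was 0.52 over members and 0.37 over all genes. Of the 52 called members, 28 differed by at least 2-fold, and for 40 of the 52 the arrays of the 2 groups did not overlap. Over all genes tested, 16.9% were called and at least 2-fold apart, and 35.1% were called without overlap. The 52 include Rgs5, the 1 member detected in a single group, which passed the detection filter only through the group where it is high. Rgs8, Pde2a, Pde3b and Pde1c, called lower, were detected on no BMP4 array, so the filter admitted them only through the other groups. By role, the Rgs names split evenly (5 higher, 5 lower, 6 not called), with the anchor gene Rgs7bp among the higher. G alpha genes gave 4 higher and 1 lower of 11, and Gpr receptors gave 6 higher and 3 lower of 29. All 3 called adenylyl cyclases were higher, and phosphodiesterase names gave 4 higher and 6 lower of 17. The higher ones hold Pde4dip, which is outside the family, and Pde4b, called on 1 of its 2 probes.

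BMP4 cells differed from Neurosphere cells in 53 members, 34 higher and 19 lower, where 50.4% of all genes were called. The members' share called in either direction is near the background of this comparison. By direction, 32.7% of members were higher and 18.3% lower, where 24.9% of all genes were higher and 25.5% lower. No test was made of these shares. The median log2 fold change was 0.06 over members and -0.01 over all genes, and the median size of change was 0.47 over members and 0.48 over all genes.

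LIF_NOG cells differed from Neurosphere cells in 33 members, 19 higher and 14 lower, where 26.4% of all genes were called, 13.4% higher and 13% lower. The median log2 fold change was -0.05 over members and -0.03 over all genes, and 11 called members differed by at least 2-fold, as did 10.1% of all genes. The count of 33 varied on leaving out an array. It was 18 without Neurosphere 2, 18 without Neurosphere 3 and 21 without Neurosphere 4. It was 22 without LIF_NOG 1 and 43 without LIF_NOG 2. These fits hold fewer arrays, and the share of all genes called in each is not given here. With median scaling in place of quantile normalization the count of members was 25, 19 higher and 6 lower, and the median of all genes shifted from -0.03 to 0.08. The share of all genes called is not given for that fit either. The 3 comparisons share their arrays in pairs, so their counts are not independent.

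**Figure D1:**
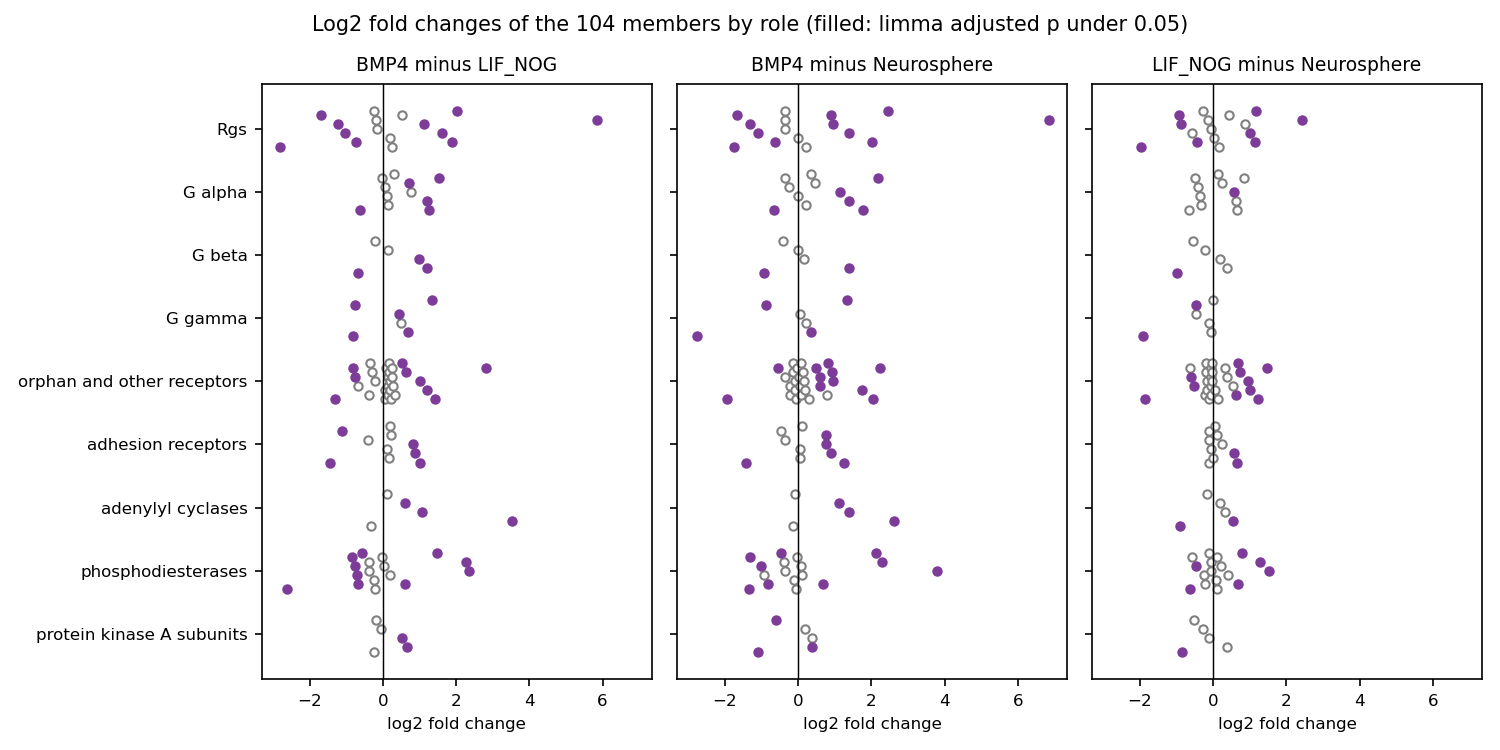
Log2 fold change of each of the 104 members by role (rows), for BMP4 against LIF_NOG, BMP4 against Neurosphere and LIF_NOG against Neurosphere (panels), with members called by limma at an adjusted p under 0.05 as filled points and the others as open points. Rgs9 stands farthest right in both BMP4 panels, at 5.85 and 6.86, and the spread is narrower in the LIF_NOG panel.

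Rgs9 encodes a member of the R7 group of Rgs proteins, best known from photoreceptors and striatal neurons, which works as a complex with the G beta protein Gnb5 and a membrane anchor such as Rgs7bp. Its log2 level was 12.12, 12.48, 12.28 and 11.86 on the BMP4 arrays, 7.06, 6.75, 5.54 and 5.99 on the LIF_NOG arrays, and 5.49, 5.32 and 5.17 on the Neurosphere arrays. The BMP4 arrays stood far above all others with no overlap, and LIF_NOG arrays lay just above Neurosphere arrays. Rgs9 was 57.7-fold higher in BMP4 than in LIF_NOG cells (log2 5.85 ± 0.28, limma SE, adjusted p = 1.53e-08), the 8th largest positive change of the 10711 genes. Against Neurosphere cells it was 116-fold higher in BMP4 cells (log2 6.86 ± 0.30, adjusted p = 6.49e-09), the 7th largest. In LIF_NOG cells it was 2.01-fold higher than in Neurosphere cells (adjusted p = 0.0264), a call lost in 4 of the fits that leave out an array and not made by its second probe (log2 0.18). The second probe also gave smaller BMP4 differences, log2 3.95 against LIF_NOG and 4.13 against Neurosphere, both called.

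The partners of Rgs9 moved less and not together. Gnb5 had log2 levels of 10.14, 10.07, 10.38 and 10.04 in BMP4 cells, 9.06, 9.08, 8.79 and 8.94 in LIF_NOG cells, and 8.79, 8.82 and 8.71 in Neurosphere cells. BMP4 arrays were all above the others, by log2 1.19 ± 0.12 over LIF_NOG (adjusted p = 7.59e-06) and 1.38 ± 0.13 over Neurosphere (adjusted p = 2.56e-06), and the second Gnb5 probe was called in the same direction in both. Rgs7bp, the anchor, had levels of 8.34, 8.23, 8.65 and 9.12 in BMP4 cells, 5.98, 8.70, 6.49 and 6.69 in LIF_NOG cells, and 9.02, 8.95 and 8.85 in Neurosphere cells. LIF_NOG arrays were low except LIF_NOG 2, which reached the BMP4 range. The difference was log2 1.62 ± 0.45 for BMP4 over LIF_NOG (adjusted p = 0.0113) and -1.97 ± 0.49 for LIF_NOG against Neurosphere (adjusted p = 0.0109), the 34th largest negative change of all genes there. With the row order of the authors' table as a block and Neurosphere 1 moved into order, the first of these had an adjusted p of 0.0535. All BMP4 arrays share a row order with LIF_NOG 4 and Neurosphere 1 alone. The block is thus nearly bound to the BMP4 group, and its size comes from LIF_NOG 4 and Neurosphere 1 against the rest of their groups.

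Rgs7, a second R7 member, was lower in BMP4 than in Neurosphere cells (log2 -1.32 ± 0.30, limma adjusted p = 0.00239). Its levels were 8.32, 7.52, 7.82 and 7.82 in BMP4 cells, 8.24, 9.56, 8.32 and 8.32 in LIF_NOG cells, and 9.45, 9.17 and 8.97 in Neurosphere cells. LIF_NOG 2 stood above the other arrays of its group, and the groups BMP4 and LIF_NOG overlapped (log2 -0.74 ± 0.28, adjusted p = 0.0473). Rgs9 and Rgs7 thus stood in opposite order between BMP4 and Neurosphere cells.

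Rgs2, which restrains signalling through the Gq class and is itself induced by many hormones, was higher under BMP4. Its log2 levels were 6.92, 7.55, 8.06 and 7.13 in BMP4 cells, 5.86, 5.57, 4.97 and 5.13 in LIF_NOG cells, and 4.77, 5.21 and 4.87 in Neurosphere cells, where 1 of 3 arrays detected it. No BMP4 array overlapped another group. The change was 4.1-fold against LIF_NOG (log2 2.03 ± 0.25, adjusted p = 4.31e-05) and 5.53-fold against Neurosphere (log2 2.47 ± 0.27, adjusted p = 9.97e-06; 5.31-fold with dim Neurosphere arrays set to the detection floor), and its second probe gave 1.82 and 2.17.

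Rgs16, an Rgs protein for the Gi and Gq classes, went the other way. It had levels of 6.59, 6.40, 7.56 and 7.72 in BMP4 cells, 10.13, 9.53, 10.17 and 9.73 in LIF_NOG cells, and 8.47, 8.68 and 9.02 in Neurosphere cells. The 3 groups did not overlap, with LIF_NOG on top and BMP4 lowest. Rgs16 was 7.08-fold lower in BMP4 than in LIF_NOG cells (log2 -2.82 ± 0.29, adjusted p = 8.21e-06), 3.16-fold lower in BMP4 than in Neurosphere cells (adjusted p = 0.000614) and 2.24-fold higher in LIF_NOG than in Neurosphere cells (adjusted p = 0.0153). The last call was lost without Neurosphere 2 (adjusted p = 0.0711) or Neurosphere 3 (adjusted p = 0.0556).

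Rgs4, which also acts on the Gi and Gq classes, was higher in both astrocyte groups than in Neurosphere cells. Levels were 6.60, 6.45, 6.64 and 7.40 in BMP4 cells, 7.75, 8.50, 7.28 and 7.70 in LIF_NOG cells, and 5.32, 5.51 and 5.31 in Neurosphere cells. Every array of both astrocyte groups exceeded every Neurosphere array, while BMP4 4 overlapped the LIF_NOG range. The change against Neurosphere was 2.62-fold in BMP4 cells (log2 1.39 ± 0.27, adjusted p = 0.000889) and 5.37-fold in LIF_NOG cells (log2 2.43 ± 0.27, adjusted p = 9.64e-05), and BMP4 cells were lower than LIF_NOG cells, at log2 -1.04 ± 0.25 (adjusted p = 0.00519). Rgs17, which acts on the Gi class and Gz, was likewise higher than in Neurosphere cells, by log2 0.90 ± 0.28 in BMP4 cells and 1.14 ± 0.28 in LIF_NOG cells (adjusted p = 0.0165 and 0.0106), but its second probe was not called and the LIF_NOG call was lost without Neurosphere 2 (adjusted p = 0.0519).

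Rgs5 and Rgs8 were each detected in part of the groups. Rgs5, widely used as a pericyte marker, had levels of 6.84, 5.87, 6.12 and 6.33 in BMP4 cells and was not detected on any LIF_NOG or Neurosphere array. It was at least 2.70-fold higher in BMP4 than in LIF_NOG cells and at least 2.62-fold higher than in Neurosphere cells, values given as a description since these detections alone brought Rgs5 into the set. In an "at least" value each dim array is set to the higher of its own value and the lowest signal of a detected probe. Among the other fibroblast and pericyte markers, Col1a1, Col3a1 and Lum did not pass the detection filter. Pdgfrb was detected on 2 of 4 BMP4, 4 of 4 LIF_NOG and 0 of 3 Neurosphere arrays and was not called in any comparison. Pdgfrb averaged 4.89 ± 0.21 in BMP4 cells and 4.97 ± 0.075 in LIF_NOG cells (SD, n = 4 each), which limma did not call (log2 -0.08 ± 0.12, adjusted p = 0.640). The part of such cells in the Rgs5 difference was not tested. Rgs8 was not detected on any BMP4 array, with levels of 6.21, 6.56, 6.24 and 5.17 in LIF_NOG cells and 5.40, 6.80 and 6.12 in Neurosphere cells. It was at least 2.27-fold lower in BMP4 than in LIF_NOG cells (adjusted p = 0.000733) and at least 2.37-fold lower than in Neurosphere cells (adjusted p = 0.000672). All detections that admitted Rgs8 lay in the groups where it is high, so these values too are a description. With the row order as a block, which is nearly bound to the BMP4 group, the call against Neurosphere was lost (log2 -0.73, adjusted p = 0.0682). The share of the row order in this result was not tested further. Rgs8 and Rgs16 are neighbours on chromosome 1 with 0 protein-coding genes between them in GRCm38.p6, as are Rgs5 and Rgs4.

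Of the other Rgs genes, Rgs12, which also carries scaffold domains, was lower in BMP4 than in LIF_NOG cells, at log2 -1.23 ± 0.28 (adjusted p = 0.00361), with BMP4 4 at 7.37 above LIF_NOG 2 at 7.16. Rgs3 was lower than in Neurosphere cells, at log2 -1.09 ± 0.19 in BMP4 cells and -0.93 ± 0.19 in LIF_NOG cells (adjusted p = 0.000365 and 0.00391), though its second probe was not called. Rgs10 was lower in LIF_NOG than in Neurosphere cells, at log2 -0.88 ± 0.25 (adjusted p = 0.0220), and this call was lost without LIF_NOG 1, LIF_NOG 4, Neurosphere 3 or Neurosphere 4.

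**Figure D2:**
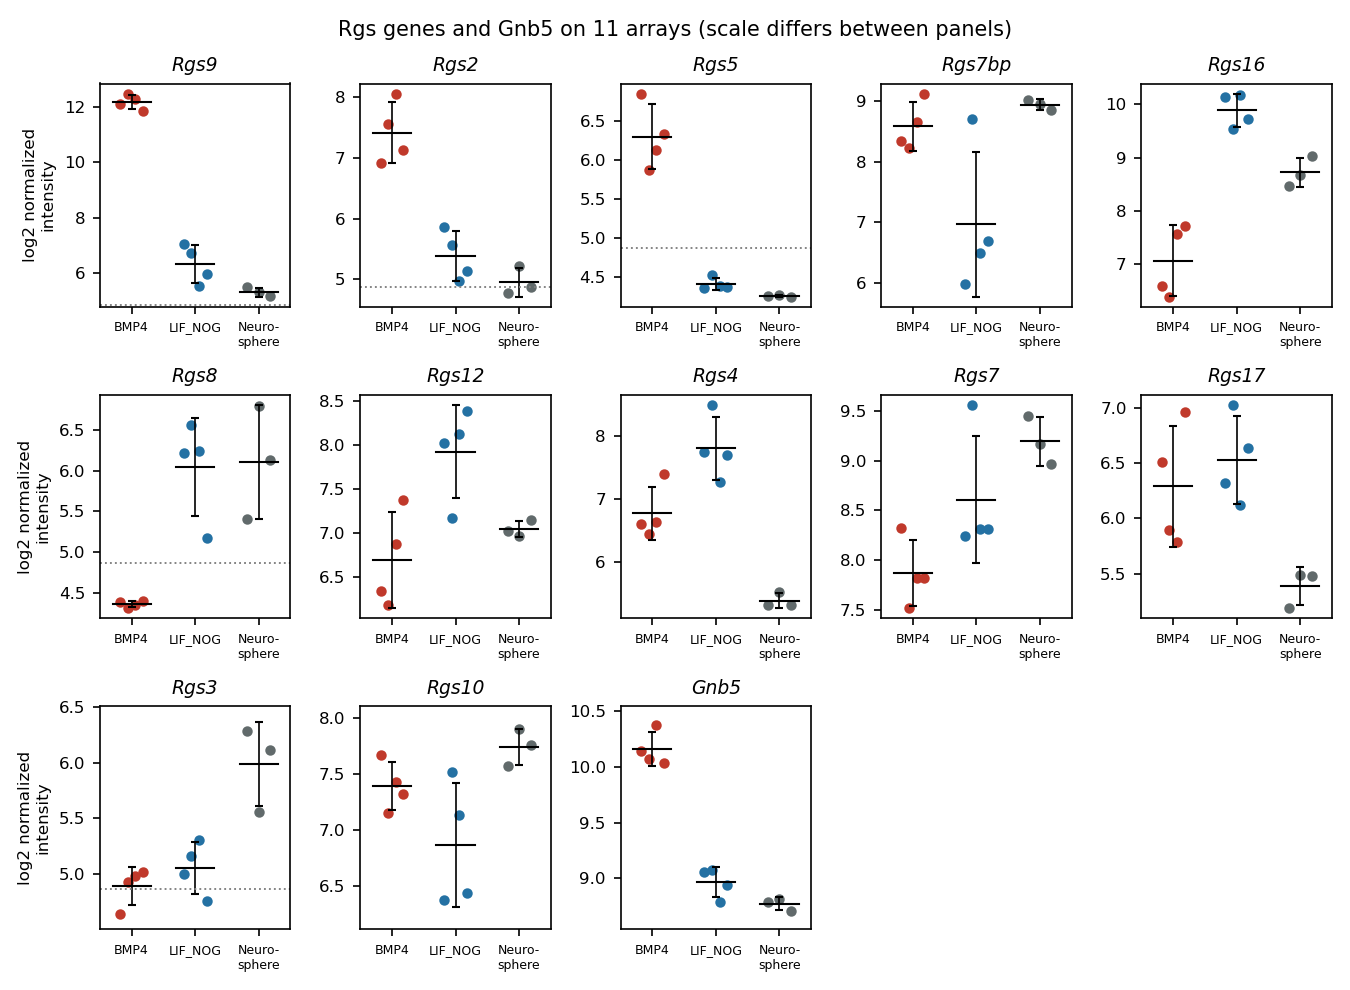
Log2 normalized intensity of Rgs genes and of Gnb5 on each BMP4, LIF_NOG and Neurosphere array (points), with the group mean (line) and SD (bars) and, where in range, the mean detection floor (dotted line); scales differ between panels. Rgs9 shows BMP4 arrays at 11.86 to 12.48 with every other array at 7.06 or below, and Rgs16 shows the opposite order of BMP4 and LIF_NOG.

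Among the G alpha genes, 4 were higher and 1 was lower in BMP4 than in LIF_NOG cells. Gna13, which encodes a widely expressed alpha subunit, had log2 levels of 11.84, 11.60, 11.41 and 11.79 in BMP4 cells, 10.60, 10.15, 10.32 and 10.77 in LIF_NOG cells, and 10.01, 9.65 and 10.01 in Neurosphere cells. The groups were separate, in that order. The change was 2.30-fold for BMP4 over LIF_NOG (log2 1.2 ± 0.16, adjusted p = 8.58e-05) and 3.41-fold for BMP4 over Neurosphere (log2 1.77 ± 0.18, adjusted p = 4.36e-06), and the second probe was called against Neurosphere only (log2 0.99). LIF_NOG exceeded Neurosphere by log2 0.57 ± 0.18 (adjusted p = 0.0313), which was lost in 5 of the fits that leave out an array.

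Gnao1, the Go subunit abundant in brain, had levels of 10.21, 10.21, 10.15 and 9.62 in BMP4 cells, 9.71, 8.88, 6.96 and 8.52 in LIF_NOG cells, and 8.45, 7.94 and 7.25 in Neurosphere cells. LIF_NOG arrays were widely scattered and LIF_NOG 1 reached the BMP4 range. BMP4 cells were higher than Neurosphere cells by log2 2.17 ± 0.49 (adjusted p = 0.00257) and than LIF_NOG cells by 1.53 ± 0.46 (adjusted p = 0.0163), the second of which had an adjusted p of 0.0940 with the row order as a block. Gnai2, of the inhibitory class, was higher in BMP4 than in Neurosphere cells by log2 1.14 ± 0.29 (adjusted p = 0.00530), with levels of 12.36, 12.24, 12.24 and 13.39 in BMP4 cells and 11.29, 11.47 and 11.51 in Neurosphere cells. Between BMP4 and LIF_NOG cells Gnai2 was not called (log2 0.30 ± 0.27, adjusted p = 0.406).

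The stimulatory subunit Gnas depended on the probe. Its brightest probe gave 10.74, 10.65, 10.32 and 10.82 in BMP4 cells and 9.51, 10.13, 10.04 and 10.01 in LIF_NOG cells, a difference of log2 0.71 ± 0.16 (adjusted p = 0.00369) without overlap. Of its 4 other probes 1 was called in the same direction (log2 0.56) and 3 were not called, and the mean of the probes gave log2 0.15 (adjusted p = 0.308). The Gnas locus makes several overlapping transcripts, so the direction for the locus is uncertain. Gnaq, of the Gq class, was not called in any comparison on any of its 5 probes in the fit without a block, with a difference of log2 0.04 ± 0.16 between BMP4 and LIF_NOG cells (adjusted p = 0.863). Gnat1, the rod transducin subunit, chosen here after its values were seen, had levels of 6.19, 5.63, 6.43 and 5.31 in BMP4 cells and was detected on 1 of 4 LIF_NOG arrays and on 0 of 3 Neurosphere arrays. BMP4 cells were higher by 2.04-fold over LIF_NOG cells, with dim LIF_NOG arrays set to the detection floor, and at least 1.98-fold over Neurosphere cells. These are descriptions, since 4 of the 5 detections that admitted Gnat1 were on BMP4 arrays.

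Among G beta and G gamma genes, the order of the groups differed from gene to gene. Gng2, a gamma subunit of neural and immune cells, had log2 levels of 6.54, 6.86, 6.22 and 6.45 in BMP4 cells, 7.31, 7.36, 7.32 and 7.40 in LIF_NOG cells, and 9.32, 9.28 and 9.24 in Neurosphere cells. The 3 groups were separate, with Neurosphere highest and BMP4 lowest. Gng2 was 6.78-fold lower in BMP4 (log2 -2.76 ± 0.14, adjusted p = 2.55e-08) and 3.82-fold lower in LIF_NOG (log2 -1.93 ± 0.14, adjusted p = 5.06e-06) than in Neurosphere cells, and lower in BMP4 than in LIF_NOG cells, at log2 -0.83 ± 0.13 (adjusted p = 0.000301). Gng11 had levels of 6.43, 6.45, 6.48 and 6.59 in BMP4 cells, 5.16, 5.35, 5.12 and 4.98 in LIF_NOG cells, and 5.00, 5.04 and 5.44 in Neurosphere cells. BMP4 arrays stood apart from both other groups, at 2.52-fold over LIF_NOG (log2 1.34 ± 0.13, adjusted p = 6.33e-06) and 2.52-fold over Neurosphere (log2 1.33 ± 0.14, adjusted p = 7.01e-06).

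Gnb4 was low in LIF_NOG cells alone of the 3 groups. Its levels were 6.62, 6.59, 6.79 and 6.96 in BMP4 cells, 5.75, 5.80, 5.72 and 5.74 in LIF_NOG cells, and 6.89, 6.71 and 6.60 in Neurosphere cells. LIF_NOG arrays did not overlap the others, and the differences were log2 0.99 ± 0.12 for BMP4 over LIF_NOG (adjusted p = 3.50e-05), -0.98 ± 0.13 for LIF_NOG against Neurosphere (adjusted p = 0.000284) and 0.01 ± 0.13 for BMP4 against Neurosphere (adjusted p = 0.978). Its second probe was called in both of the same comparisons. Gng12 had a like order, at log2 0.69 ± 0.13 for BMP4 over LIF_NOG (adjusted p = 0.00115) and -0.48 ± 0.14 for LIF_NOG against Neurosphere (adjusted p = 0.0279), the second of which was lost without LIF_NOG 3, LIF_NOG 4, Neurosphere 2 or Neurosphere 3.

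Gnb1, a widely expressed beta subunit, was lower under BMP4, with levels of 10.64, 10.63, 10.03 and 10.07 in BMP4 cells, 10.77, 11.25, 11.12 and 11.00 in LIF_NOG cells, and 11.28, 11.31 and 11.23 in Neurosphere cells. No BMP4 array overlapped the other groups, at log2 -0.69 ± 0.17 against LIF_NOG (adjusted p = 0.00502) and -0.93 ± 0.18 against Neurosphere (adjusted p = 0.000850). Gng10, chosen after its values were seen, was lower in BMP4 cells, at log2 -0.76 ± 0.16 against LIF_NOG (adjusted p = 0.00188) and -0.88 ± 0.17 against Neurosphere (adjusted p = 0.000830). Within BMP4 cells Gnb5 and Gng11 thus stood above, and Gnb1, Gng2 and Gng10 below, both other groups.

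Gpr158, an orphan receptor known to bind Rgs7 with Gnb5 at the membrane, was nearly undetected in LIF_NOG cells. Its log2 levels were 7.91, 7.78, 6.91 and 7.30 in BMP4 cells, 4.87, 4.72, 4.6 and 4.49 in LIF_NOG cells, where 1 of 4 arrays detected it, and 6.82, 6.67 and 6.16 in Neurosphere cells. The 3 groups did not overlap. With LIF_NOG arrays set to the detection floor where they lay under it, Gpr158 was 6.12-fold higher in BMP4 than in LIF_NOG cells (limma adjusted p = 8.60e-07) and 3.22-fold lower in LIF_NOG than in Neurosphere cells (limma adjusted p = 0.000208). It was 1.90-fold higher in BMP4 than in Neurosphere cells (adjusted p = 0.00527). Over the alternatives the log2 difference of BMP4 and LIF_NOG ran from 0.99, with the values processed by the authors, to 2.99, and it was called in each.

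Gpr85, an orphan receptor of brain, had levels of 10.24, 10.18, 10.30 and 10.40 in BMP4 cells, 8.85, 8.61, 8.80 and 9.14 in LIF_NOG cells, and 8.17, 8.08 and 8.44 in Neurosphere cells. BMP4 arrays were highest and the groups were separate. The change was 2.69-fold for BMP4 over LIF_NOG (log2 1.43 ± 0.14, adjusted p = 5.25e-06) and 4.14-fold for BMP4 over Neurosphere (log2 2.05 ± 0.15, adjusted p = 3.43e-07), while the second probe gave log2 0.59 and 0.58, both called. Gpr137b, a lysosomal membrane protein, had levels of 7.82, 8.18, 8.43 and 8.69 in BMP4 cells, 7.85, 6.97, 6.95 and 7.28 in LIF_NOG cells, and 5.81, 6.19 and 6.10 in Neurosphere cells. It was higher in both astrocyte groups than in Neurosphere cells, by 4.74-fold in BMP4 cells (log2 2.25 ± 0.24, adjusted p = 8.06e-06) and 2.34-fold in LIF_NOG cells (log2 1.23 ± 0.24, adjusted p = 0.00334). The array also names a pseudogene copy, Gpr137b-ps (BMP4 against Neurosphere log2 1.74 ± 0.27, adjusted p = 0.000142), and the probes of both may report on either.

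Gpr17, a receptor of oligodendrocyte precursors, was low under BMP4. Its levels were 5.82, 5.79, 6.01 and 5.81 in BMP4 cells, 6.84, 6.71, 7.04 and 8.11 in LIF_NOG cells, and 8.08, 7.33 and 8.03 in Neurosphere cells. BMP4 arrays stood below both other groups, at log2 -1.31 ± 0.27 against LIF_NOG (adjusted p = 0.00183) and -1.95 ± 0.29 against Neurosphere (adjusted p = 0.000116). Of 6 oligodendrocyte progenitor markers, all measured, 3 were lower and 0 higher in BMP4 than in LIF_NOG cells, and 5 were lower than in Neurosphere cells. Their summed linear level was 27987 to 30051 on BMP4 arrays, 28178 to 31962 on LIF_NOG arrays and 25911 to 31119 on Neurosphere arrays, with Sox10 and Nkx2-2 detected on no BMP4 array. Olig1 made up at least 96.3% of the sum on BMP4 arrays, 92.3% to 94.6% on LIF_NOG arrays and 89.9% to 92.8% on Neurosphere arrays. Pdgfra averaged 5.54 ± 0.08 in BMP4 cells and 8.75 ± 0.48 in LIF_NOG cells (SD, n = 4 each). The part of such cells in the Gpr17 difference was not tested.

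Gpr37l1, an astrocyte receptor, was variable, with levels of 5.36, 4.54, 5.23 and 6.68 in BMP4 cells, 6.30, 5.05, 6.25 and 6.98 in LIF_NOG cells, and 4.68, 4.91 and 4.43 in Neurosphere cells. LIF_NOG exceeded Neurosphere by log2 1.47 ± 0.47 (adjusted p = 0.0357), a call lost on leaving out LIF_NOG 1, 3 or 4 or any 1 Neurosphere array. BMP4 was not called against either group in the main fit. Without LIF_NOG 2 or without BMP4 4, Gpr37l1 was called lower in BMP4 than in LIF_NOG cells (log2 -1.05 and -1.10, limma adjusted p = 0.0383 and 0.0336). Gpr19 had levels of 8.77, 9.09, 9.23 and 9.34 in BMP4 cells, 9.91, 9.66, 9.91 and 10.00 in LIF_NOG cells, and 8.85, 8.84 and 9.11 in Neurosphere cells. LIF_NOG arrays were above all others, by log2 0.94 ± 0.16 over Neurosphere (adjusted p = 0.00113). Gpr146 and Gpr107 were also higher in LIF_NOG than in Neurosphere cells, by log2 0.99 ± 0.17 and 0.72 ± 0.16 (adjusted p = 0.00162 and 0.00660). Gpr89 and Gpr180 were lower in LIF_NOG than in Neurosphere cells, at log2 -0.61 ± 0.11 and -0.52 ± 0.14 (adjusted p = 0.00204 and 0.0159), and both calls were lost with median scaling (adjusted p = 0.0654 and 0.160). Gpr137c was lower in BMP4 than in LIF_NOG cells, at log2 -0.81 ± 0.20 (adjusted p = 0.00558).

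Of the 10 adhesion receptors, whose large outer domains bind matrix and other cells, 3 were higher and 2 lower in BMP4 than in LIF_NOG cells. Adgrv1 had levels of 5.05, 5.12, 5.12 and 5.46 in BMP4 cells, 6.93, 6.89, 6.54 and 6.13 in LIF_NOG cells, and 6.62, 6.79 and 6.45 in Neurosphere cells. BMP4 arrays were below all others, at log2 -1.44 ± 0.18 against LIF_NOG (adjusted p = 4.31e-05) and -1.43 ± 0.19 against Neurosphere (adjusted p = 4.88e-05). Adgrl3, a latrophilin, was lower in BMP4 than in LIF_NOG cells, at log2 -1.11 ± 0.18 (adjusted p = 0.000266), and 2 of its 3 other probes were called in the same direction.

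**Figure D3:**
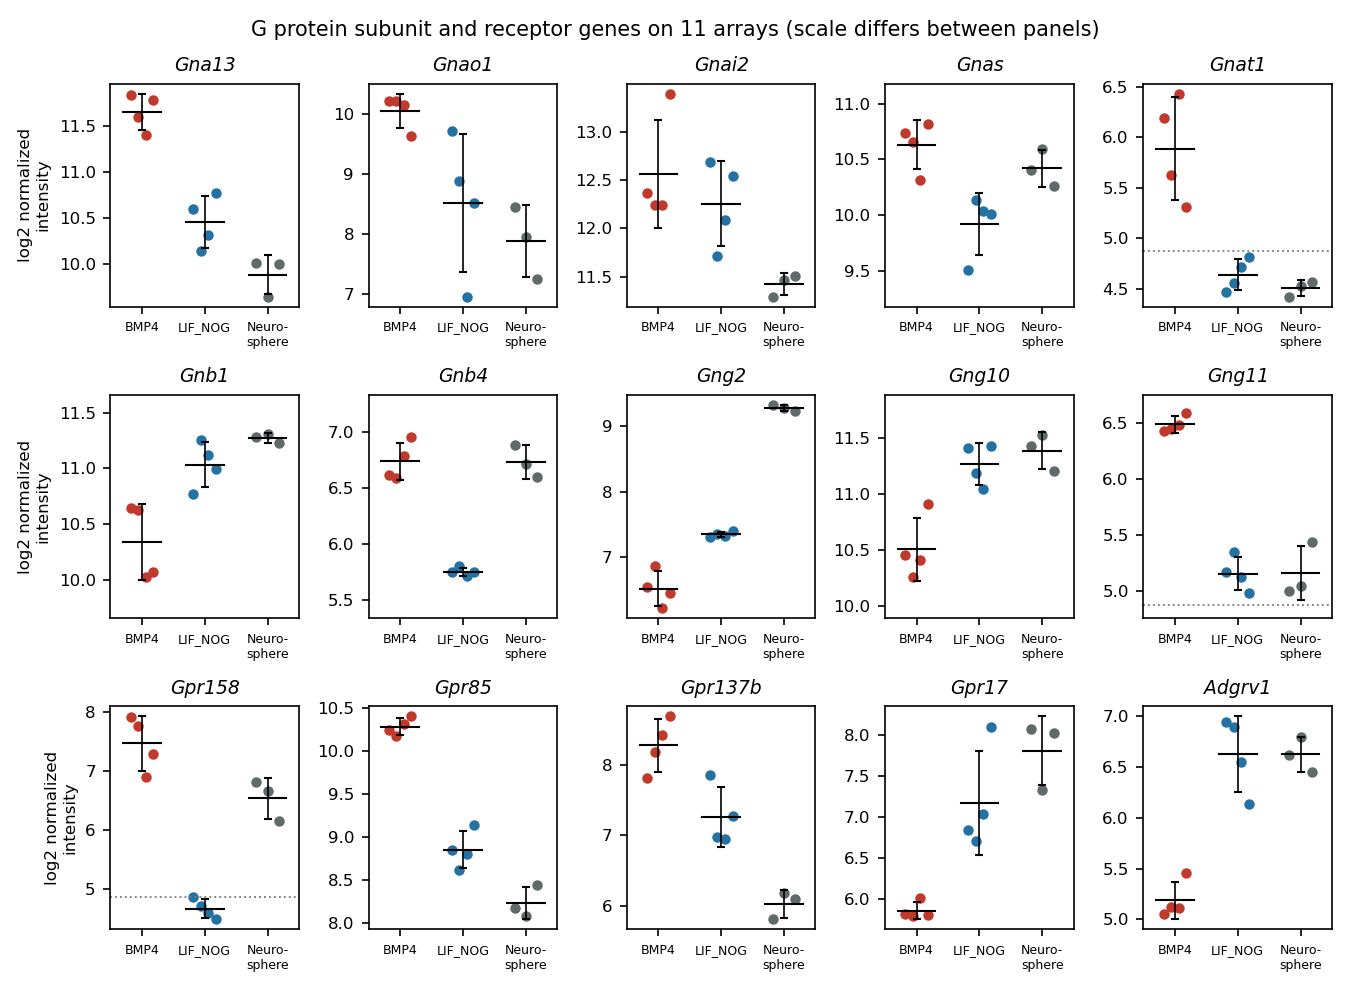
Log2 normalized intensity of G protein subunit and receptor genes on each BMP4, LIF_NOG and Neurosphere array (points), with the group mean (line) and SD (bars) and, where in range, the mean detection floor (dotted line); scales differ between panels. Gng2 lies at 6.22 to 6.86 on BMP4 arrays against 9.24 to 9.32 on Neurosphere arrays, and Gnb4 and Gpr158 are lowest in LIF_NOG.

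At the level of cAMP synthesis, Adcy8, a cyclase stimulated by calcium and calmodulin, was higher in BMP4 cells. Its log2 levels were 9.63, 9.99, 10.42 and 9.57 in BMP4 cells, 6.51, 5.92, 6.83 and 6.30 in LIF_NOG cells, and 7.02, 7.34 and 7.51 in Neurosphere cells. The groups did not overlap, with LIF_NOG lowest. The change was 11.4-fold for BMP4 over LIF_NOG (log2 3.51 ± 0.22, adjusted p = 1.68e-07), the 66th largest positive change of all genes, and 6.12-fold for BMP4 over Neurosphere (log2 2.61 ± 0.24, adjusted p = 2.47e-06). LIF_NOG was lower than Neurosphere, at log2 -0.90 ± 0.24 (adjusted p = 0.0164), a call lost without Neurosphere 3 or Neurosphere 4 and with median scaling (adjusted p = 0.0597, 0.0694 and 0.0615).

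The other 2 called cyclases, chosen after their values were seen, were Adcy2, which G beta-gamma can stimulate, and the widely expressed Adcy9. Adcy2 had levels of 9.06, 8.92, 9.19 and 7.51 in BMP4 cells, 7.33, 8.01, 7.47 and 7.66 in LIF_NOG cells, and 6.95, 7.75 and 7.19 in Neurosphere cells, so that BMP4 4 lay within the other groups. It was called at log2 1.06 ± 0.33 over LIF_NOG (adjusted p = 0.0200), which was lost without BMP4 1, 2 or 3 or LIF_NOG 1 or 3, and 1.38 ± 0.35 over Neurosphere (adjusted p = 0.00571). The difference from LIF_NOG was also lost with the row order as a block (adjusted p = 0.0656). Adcy9 had levels of 6.16, 6.11, 6.56 and 6.68 in BMP4 cells, 5.57, 5.80, 5.63 and 6.13 in LIF_NOG cells, and 5.23, 5.34 and 5.17 in Neurosphere cells, with BMP4 above Neurosphere by log2 1.13 ± 0.18 (adjusted p = 0.000172). Over LIF_NOG it was higher by 0.59 ± 0.16 (adjusted p = 0.0113), which was lost with median scaling (adjusted p = 0.0757) and with the row order as a block (adjusted p = 0.0889).

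Phosphodiesterases moved in both directions. Pde4a and Pde8a, which degrade cAMP alone, were higher under BMP4. Pde7a, which also degrades cAMP alone, was lower on its brighter probe only. Pde2a, Pde3b and Pde1c were not detected on any BMP4 array. Pde8a had levels of 7.35, 7.13, 6.89 and 7.74 in BMP4 cells, 4.96, 5.07, 4.96 and 4.73 in LIF_NOG cells (detected on 3 of 4 arrays), and 5.22, 4.78 and 4.96 in Neurosphere cells (detected on 2 of 3). BMP4 arrays stood apart, 5.10-fold over LIF_NOG (log2 2.35 ± 0.18, adjusted p = 6.53e-07) and 4.89-fold over Neurosphere (log2 2.29 ± 0.19, adjusted p = 1.08e-06).

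Pde4a had levels of 7.44, 7.76, 7.69 and 7.50 in BMP4 cells, 5.92, 6.58, 5.89 and 6.09 in LIF_NOG cells, and 5.57, 5.35 and 5.46 in Neurosphere cells. The groups were separate, with Neurosphere lowest. BMP4 cells were 2.78-fold above LIF_NOG cells (log2 1.48 ± 0.16, adjusted p = 1.37e-05) and 4.4-fold above Neurosphere cells (log2 2.14 ± 0.17, adjusted p = 7.89e-07), and LIF_NOG cells exceeded Neurosphere cells by log2 0.66 ± 0.17 (adjusted p = 0.0135).

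Pde4b, which also degrades cAMP alone, gave different answers on its 2 probes. The brighter probe read 10.40, 10.98, 11.08 and 11.11 in BMP4 cells, 8.63, 8.98, 8.25 and 8.64 in LIF_NOG cells, and 7.14, 7.06 and 7.13 in Neurosphere cells, with separate groups and BMP4 highest. On that probe BMP4 was 4.82-fold over LIF_NOG (log2 2.27 ± 0.18, adjusted p = 1.21e-06) and 13.8-fold over Neurosphere (log2 3.78 ± 0.20, adjusted p = 2.60e-08), and LIF_NOG was 2.86-fold over Neurosphere (adjusted p = 0.000273). The other probe gave log2 0.05, -0.16 and -0.21 and was called in none of these comparisons. Which transcripts of Pde4b each probe reads was not tested.

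Pde2a, which cGMP stimulates, read 4.28, 4.32, 4.25 and 4.32 on BMP4 arrays, none of them detected, against 7.03, 6.83, 6.67 and 7.18 in LIF_NOG cells and 5.27, 5.68 and 5.99 in Neurosphere cells. LIF_NOG was highest and the groups did not overlap. Pde2a was at least 4.19-fold lower in BMP4 than in LIF_NOG cells (adjusted p = 1.09e-07) and at least 1.72-fold lower than in Neurosphere cells (adjusted p = 3.06e-05), and 2.43-fold higher in LIF_NOG than in Neurosphere cells (log2 1.28 ± 0.17, adjusted p = 0.000339). Pde3b, which cGMP inhibits, had levels of 5.29, 5.42, 5.33 and 5.41 in LIF_NOG cells and 5.85, 5.97 and 5.66 in Neurosphere cells. In BMP4 cells it was at least 1.42-fold lower than in LIF_NOG (adjusted p = 6.12e-05) and at least 1.95-fold lower than in Neurosphere cells (adjusted p = 2.09e-06). All detections that admitted Pde2a and Pde3b lay outside the BMP4 group, so their differences from BMP4 cells are descriptions.

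Pde1c, a calmodulin-dependent enzyme, was at least 1.27-fold lower in BMP4 than in LIF_NOG cells, where 3 of the 4 detections that admitted it lay. Pde3a, the second gene of the cGMP-inhibited family, was higher in LIF_NOG than in Neurosphere cells by log2 0.78 ± 0.24 (adjusted p = 0.0320), a call lost without LIF_NOG 1 or any 1 Neurosphere array. Pde10a, known from the striatum, was lower than in Neurosphere cells, at log2 -1.01 ± 0.20 in BMP4 cells (adjusted p = 0.000939) and -0.63 ± 0.20 in LIF_NOG cells (adjusted p = 0.0360), the second lost without LIF_NOG 1, 3 or 4 or Neurosphere 2 or 4. Pde7a, chosen after its values were seen, was lower in BMP4 cells, at log2 -0.71 ± 0.14 against LIF_NOG (adjusted p = 0.00121) and -0.82 ± 0.15 against Neurosphere (adjusted p = 0.000522). Its second probe was not called in either comparison (log2 -0.20 and -0.44).

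The protein kinase A genes moved less. Prkar1a, the widely expressed type I regulatory subunit, had levels of 12.80, 12.78, 12.79 and 12.90 in BMP4 cells, 12.27, 12.28, 12.26 and 12.41 in LIF_NOG cells, and 12.33, 12.37 and 12.58 in Neurosphere cells. BMP4 arrays were above all others by a small margin, log2 0.51 ± 0.11 over LIF_NOG (adjusted p = 0.00199) and 0.39 ± 0.12 over Neurosphere (adjusted p = 0.0136). The second of these was lost without Neurosphere 2 or 3 and with median scaling, while the second probe of Prkar1a was called in both comparisons (log2 1.34 and 0.98). Prkar2a was higher in BMP4 than in LIF_NOG cells by log2 0.67 ± 0.16 (adjusted p = 0.00446).

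Prkar2b, the regulatory subunit abundant in brain, was lower than in Neurosphere cells. Levels were 8.78, 8.88, 8.90 and 8.61 in BMP4 cells, 8.81, 9.83, 8.82 and 8.72 in LIF_NOG cells, and 9.97, 9.92 and 9.77 in Neurosphere cells. BMP4 arrays and LIF_NOG arrays other than LIF_NOG 2 lay below Neurosphere, at log2 -1.10 ± 0.23 for BMP4 (adjusted p = 0.00145) and -0.84 ± 0.23 for LIF_NOG (adjusted p = 0.0173), the second lost without LIF_NOG 1, Neurosphere 2 or Neurosphere 3, and its second probe was not called. The catalytic subunit gene Prkaca was lower in BMP4 than in Neurosphere cells, at log2 -0.60 ± 0.18 (adjusted p = 0.0158), which was lost without Neurosphere 4 (adjusted p = 0.0772) and with the row order as a block (adjusted p = 0.133). Between BMP4 and LIF_NOG cells the difference in Prkaca was log2 -0.07 ± 0.17 (adjusted p = 0.796).

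**Figure D4:**
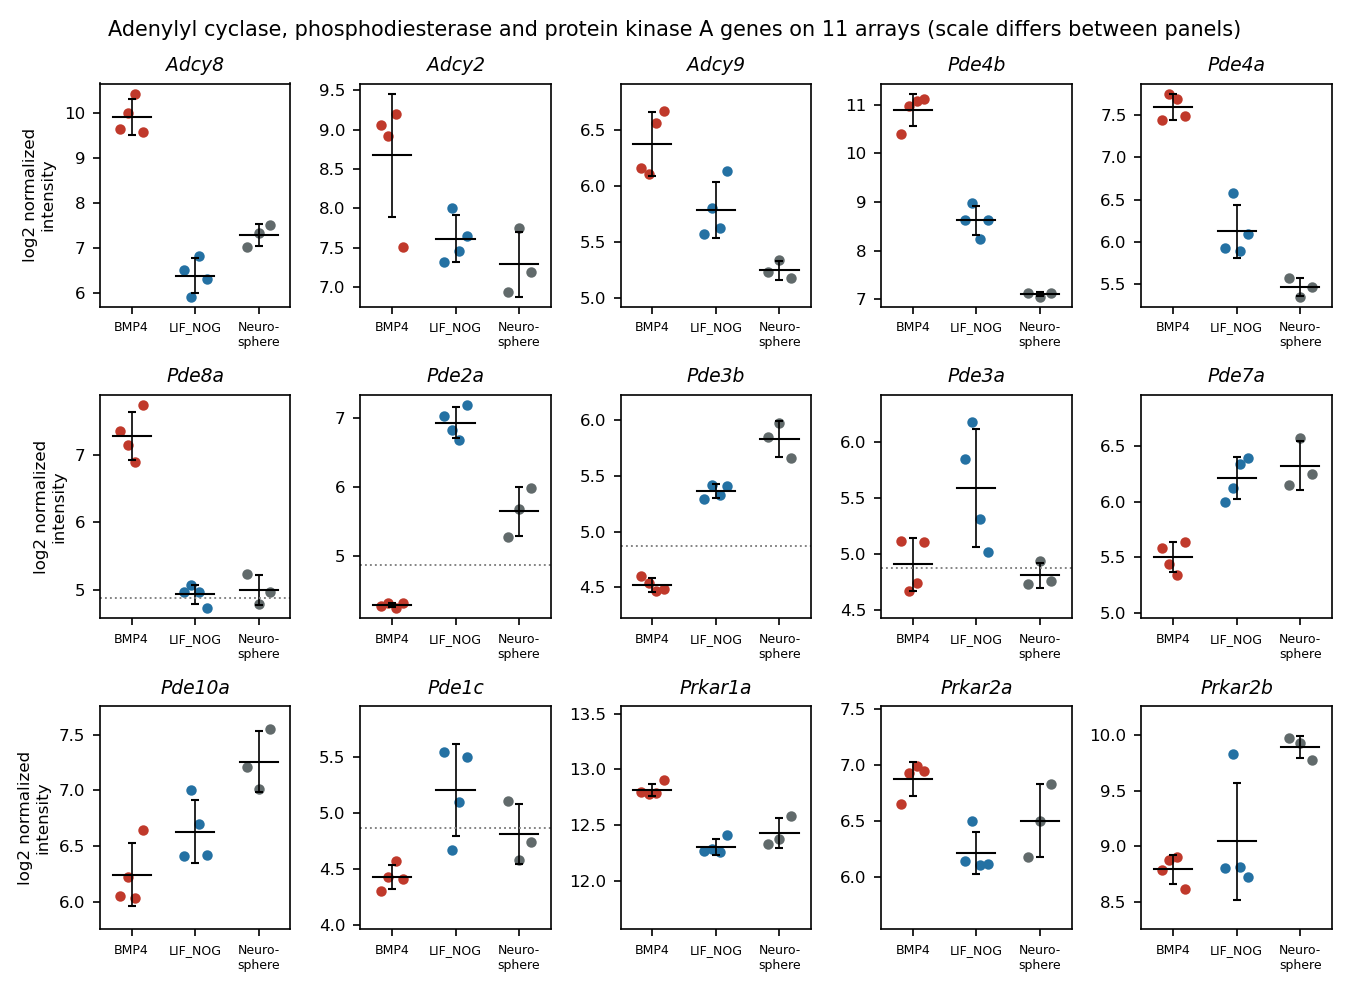
Log2 normalized intensity of adenylyl cyclase, phosphodiesterase and protein kinase A genes on each BMP4, LIF_NOG and Neurosphere array (points), with the group mean (line) and SD (bars) and, where in range, the mean detection floor (dotted line); scales differ between panels. Adcy8, Pde4a and Pde8a are highest on BMP4 arrays, while Pde2a and Pde3b lie under the floor there.

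Genes of the pathway outside the name rule were read from 8 lists, whose counts stand beside all-gene shares of 20.3% higher and 22.4% lower for BMP4 against LIF_NOG, 24.9% and 25.5% for BMP4 against Neurosphere, and 13.4% and 13% for LIF_NOG against Neurosphere. With so few genes a list, no count is read as particular to a list. Guanylyl cyclases and cGMP-dependent kinases gave 3 higher and 1 lower of 5 measured in BMP4 against LIF_NOG cells, and the same counts against Neurosphere cells. Gucy1a1, a subunit of the nitric oxide-sensitive cyclase, was higher in BMP4 cells by log2 2.45 ± 0.40 over LIF_NOG (adjusted p = 0.000373) and 1.98 ± 0.44 over Neurosphere (adjusted p = 0.00204). Gucy1b1, the partner subunit, was higher in BMP4 than in LIF_NOG cells (log2 1.03 ± 0.21, adjusted p = 0.00158) and lower in LIF_NOG than in Neurosphere cells (-1.16 ± 0.225, adjusted p = 0.00305). Npr2, the C-type natriuretic peptide receptor, was higher than in Neurosphere cells by 2.14 ± 0.22 in BMP4 and 1.64 ± 0.22 in LIF_NOG cells (adjusted p = 5.23e-06 and 0.000311).

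Of 12 measured CREB family, coactivator and cAMP-induced genes, 2 were higher and 2 lower in BMP4 than in LIF_NOG cells, 7 higher and 1 lower in BMP4 than in Neurosphere cells, and 4 higher and 1 lower in LIF_NOG than in Neurosphere cells. Ppargc1a, a coactivator that CREB can induce, was higher in BMP4 than in LIF_NOG cells by log2 2.47 ± 0.22 (adjusted p = 2.69e-06). It was lower in LIF_NOG than in Neurosphere cells, at -1.03 ± 0.24 (adjusted p = 0.00763). Crem, Fosl2, Nr4a2 and Per1 of the same list were not called between BMP4 and LIF_NOG cells (log2 0.11, -0.18, -0.08 and -0.23). Creb5 was lower in BMP4 cells at -1.60 ± 0.28 against LIF_NOG and -2.02 ± 0.31 against Neurosphere (adjusted p = 0.000612 and 0.000121). Fosl2 was higher than in Neurosphere cells by 2.82 ± 0.43 in BMP4 and 3.00 ± 0.43 in LIF_NOG cells (adjusted p = 0.000124 and 0.000478), and Fosl2 answers to other pathways too. Nr4a2 was higher in LIF_NOG than in Neurosphere cells (log2 1.90 ± 0.60, adjusted p = 0.0331).

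Kinase anchoring proteins and inhibitors gave 3 higher and 3 lower of 11 in BMP4 against LIF_NOG cells. Ezr, an anchor that links membrane and actin, was higher in BMP4 than in Neurosphere cells by log2 2.13 ± 0.26 (adjusted p = 2.29e-05), and Akap12 was lower at -2.55 ± 0.61 (adjusted p = 0.00364). Akap9 was lower in BMP4 than in LIF_NOG cells (-0.91 ± 0.20, adjusted p = 0.00281), and Akap2 was lower in LIF_NOG than in Neurosphere cells (-0.98 ± 0.275, adjusted p = 0.0201). Among 7 Epac and Rap genes 0 were higher and 3 lower in BMP4 than in LIF_NOG cells, with Rapgef3, which encodes the cAMP sensor Epac1, lower at -1.07 ± 0.17 (adjusted p = 0.000297) and Rap2b at -0.67 ± 0.12 (adjusted p = 0.000756). Rapgef6 was lower in BMP4 than in Neurosphere cells (-0.47 ± 0.16, adjusted p = 0.0273), Rap1b was lower in LIF_NOG than in Neurosphere cells (-0.44 ± 0.15, adjusted p = 0.0485) and Rap2b was higher there (0.39 ± 0.13, adjusted p = 0.0484). G protein modulators gave 2 higher and 3 lower of 6, with Gprin1 lower at -2.19 ± 0.14 (adjusted p = 1.45e-07) and Gprin3 higher by 1.30 ± 0.19 (adjusted p = 0.000154). Receptor kinases and arrestins gave 1 higher and 1 lower of 5 in BMP4 against LIF_NOG cells. Arrb2, a beta-arrestin, was lower in BMP4 cells at -0.79 ± 0.16 against LIF_NOG (adjusted p = 0.00176) and -1.31 ± 0.18 against Neurosphere (adjusted p = 4.92e-05), and lower in LIF_NOG than in Neurosphere cells (-0.51 ± 0.18, adjusted p = 0.0489). Grk4 was higher in BMP4 than in LIF_NOG cells (0.69 ± 0.17, adjusted p = 0.00507) and was detected on 0 of 3 Neurosphere arrays. Phospholipase C beta and other effectors gave 2 higher and 0 lower of 8, Prex1 at 0.70 ± 0.14 (adjusted p = 0.00158) and Arhgef12 at 0.68 ± 0.11 (adjusted p = 0.000328). Both also exceeded Neurosphere in BMP4 cells (1.67 ± 0.15 and 0.98 ± 0.12, adjusted p = 2.29e-06 and 2.00e-05). The calls against Neurosphere of Akap2, Nr4a2, Rap1b, Rap2b and Arrb2 in LIF_NOG cells, and of Rapgef6 in BMP4 cells, were each lost without Neurosphere 2 and without Neurosphere 3.

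Of 24 measured receptors with other names, 6 were higher and 6 lower in BMP4 than in LIF_NOG cells, 9 higher and 3 lower in BMP4 than in Neurosphere cells, and 11 higher and 0 lower in LIF_NOG than in Neurosphere cells. The purinergic receptors P2ry1 and P2ry2 stood in opposite order between BMP4 and LIF_NOG cells, at log2 2.23 ± 0.17 (adjusted p = 6.90e-07) and -2.06 ± 0.28 (adjusted p = 8.50e-05). Ntsr2, a neurotensin receptor of astrocytes, was higher than in Neurosphere cells by 3.21 ± 0.57 in BMP4 and 2.82 ± 0.57 in LIF_NOG cells (adjusted p = 0.000449 and 0.00383). Lpar1, a lysophosphatidic acid receptor, averaged 7.61 in BMP4 cells and 6.79 in LIF_NOG cells and was detected on 0 of 3 Neurosphere arrays. Lists and members were chosen with results of these arrays known, so the counts describe these arrays.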

How the data were processed

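RNA of 12 samples was measured on Illumina bead arrays. The deposited raw table gives a non-normalized signal intensity per probe and, per the file headers, a detection p-value beside it. BeadStudio 3 and lumi 2.15.1 appear, without a role, in the submitters' processing notes. The other deposited table gives processed intensity from the authors, each column with a median of 134. Its columns stand in 2 row orders: Neurosphere 1, LIF_NOG 4 and BMP4 1 to 4 share one, the other 6 arrays the other. In the raw table Neurosphere 1 alone stands out of order. It was left out, and as an alternative was moved into order through the authors' table, after which its rank correlation with its group was 0.916 to 0.928. No per-sample column was left unused (0 columns).

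Of 46643 raw rows, 11 probe IDs listed more than once were left out. Of the 46621 probes kept, 29967 carried 1 gene symbol, 10 several and 16644 none, and 0 symbols changed when updated through Entrez IDs. The neqc function (limma 3.58.1, R 4.3.3) was used for background correction and quantile normalization (offset 16, log2). Probes detected at p under 0.05 on at least 4 of 11 arrays were kept (20044, of which 15192 with 1 symbol), and the probe with the highest mean stood for a gene (3300 genes had more than 1). Group means over 11 arrays were tested with lmFit and eBayes (residual degrees of freedom 8, prior 4.36). Two-sided p-values were adjusted by Benjamini-Hochberg over 10711 genes per comparison. An "at least" fold sets each array of the undetected group to the higher of its own value and its detection floor (log2 4.80 to 4.92). The number of arrays limits the precision. On simulated data for BMP4 against LIF_NOG (10711 genes, 200 changed), 68% of changes of log2 1 and 98% of log2 2 were recovered, with 3 false calls. In the real comparison 42.7% of genes were called, a far larger share than was changed here. These rates therefore need not hold for the real arrays. Promoters matched 81 of 104 members.

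Members and lists were chosen with earlier results of these data known. Named in each comparison are the 12 called members with the largest positive and the 12 with the largest negative change, the largest called of each role, and Gnas, Gnai2, Gnaq, Gnb1, Prkaca, Prkar1a, Rgs5, Gpr17 and Gpr37l1, plus the 2 largest called genes of each pathway list. Adcy2, Adcy9, Gnat1, Gng10 and Pde7a were added after their values were seen.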

Additional observations from a re-analysis of the deposited data

Results flagged for a closer look

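In groups of 4 arrays, 16 values of named genes stood so far from the other 3 that the gap, as a share of the range of the group, exceeded Dixon's critical value for 4 values. Of 160 groups tested, chance flags about 1 in 20. On BMP4 4, log2 levels were 7.51 for Adcy2 (8.92 to 9.19 on the other BMP4 arrays), 13.39 for Gnai2 (12.24 to 12.36), 9.62 for Gnao1 (10.15 to 10.21), 8.08 for Gpr107 (7.54 to 7.55), 8.70 for Akap9 (9.25 to 9.35) and 12.90 for Prkar1a (12.78 to 12.80). BMP4 1 was low for Gpr146 at 5.60 (5.92 to 5.95) and for Prkar2a at 6.65 (6.93 to 6.99), and BMP4 3 was high for Gpr17 at 6.01 (5.79 to 5.82). On LIF_NOG 2, levels were 9.56 for Rgs7 (8.24 to 8.32 on the other LIF_NOG arrays), 9.83 for Prkar2b (8.72 to 8.82), 6.5 for Prkar2a (6.10 to 6.14), 6.48 for Gpr146 (6.14 to 6.18), 7.82 for P2ry2 (6.85 to 6.95) and 4.53 for Rgs5 (4.37 to 4.39), the last under detection. LIF_NOG 4 was high for Prkar1a at 12.41 (12.26 to 12.28). These 16 values lie mostly on BMP4 4 and LIF_NOG 2.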

How the results depend on the processing

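Leaving out 1 array at a time, the number of members called was 48 to 56 for BMP4 against LIF_NOG, 46 to 56 for BMP4 against Neurosphere and 18 to 43 for LIF_NOG against Neurosphere, and 81 to 94 of the 94 named calls held. The count for LIF_NOG against Neurosphere was 18 without Neurosphere 2, 18 without Neurosphere 3 and 21 without Neurosphere 4, fits with fewer arrays. Under the other alternatives (Neurosphere 1 moved into order and included, median scaling, no background correction, the authors' values, no detection filter, a stricter filter, the mean of the probes, and both blocks) counts were 42 to 54, 49 to 56 and 25 to 41 in the same order of comparisons. The share of all genes called in each of these fits is not given. A change in the counts of members therefore cannot be told from a change over all genes. Same-numbered arrays of different groups correlated at -0.083 to 0.259 in their deviations from the group means, 7 of 10 pairs over 0.1, and at -0.270 to 0.233 between different numbers. The best match in another group had the same number in 18 of 20 cases, a hint from the data and not the design. As 3 pairs lay under 0.1 and the labels do not say what the numbers mark, the block was kept as an alternative. With the replicate block the counts were 51, 54 and 32, calls of Pde3a and Pde10a for LIF_NOG against Neurosphere were lost (adjusted p = 0.0714 and 0.0645), Gnai2 gained one there (adjusted p = 0.0336), and Gnaq was called lower than in Neurosphere cells in BMP4 (log2 -0.44, adjusted p = 0.0283) and LIF_NOG cells (-0.49, adjusted p = 0.0355). Of the results for single named members, 2128 kept direction and side of the threshold, 94 lost a call and 26 gained one. Another 11 changed sign, none of them called in either fit: for BMP4 against LIF_NOG, Gnaq at -0.0133 with median scaling and -0.0409 to 0.144 on leaving out an array, and Prkaca at 0.0635 with the row order as a block and -0.177 to 0.0727 on leaving out an array; for BMP4 against Neurosphere, Gnas at -0.10 with the mean of the probes; for LIF_NOG against Neurosphere, Pde7a at 0.0604 with median scaling and -0.197 to 0.0119 on leaving out an array. Of the results for 45 calls of named pathway genes, 836 kept their call and 64 lost it. Without background correction 26 of the 94 called fold changes moved by over 1.5 times, with the authors' values 48, with the mean of the probes 6 (of Rgs9, Pde4b and Gpr85) and with the row order as a block 2 (both Rgs8); on leaving out any 1 array none did. The cause of these moves was not tested. Faint members are limited by signal: 76 of the members were detected on all 11 arrays, the others on fewer.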
